A study of Mus musculus with 12 samples.

Results

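Keratins, claudins, cadherins, protocadherins and the plaque proteins of tight junctions and desmosomes were examined in the fallopian tubes of female mice that carry an SV40 large T antigen transgene. The genes were taken by name: every gene with values whose annotated symbol begins with Krt, Cldn, Cdh, Cdhr or Pcdh and a family number or letter, together with Tjp, Dsg, Pkp, Dsc1 to Dsc3, Ocln, Dsp, Jup, Cgn and F11r. Of 169 such genes in the platform annotation, 83 had values, out of 11229 named genes in all. They were read by 98 probes. The remaining 86 were blank on all arrays, and nothing is said of them.

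The series compared 3 mogp-TAg transgenic mice with 3 wildtype C57BL6 mice, aged 7, 8 and 9 weeks, so that a single mouse stood for a genotype at an age. Both genotypes share the C57BL6 background. In the mogp-TAg strain the T antigen, which binds and inactivates p53 and the RB proteins, is driven by the mouse oviductal glycoprotein promoter, so it is meant to be made in the secretory cells of the tube. Total RNA came from dissected tubes, each mouse was read on 2 arrays, and the mouse, not the array, was the replicate, so that 3 mice per genotype limit the precision. The labels do not say whether the 2 arrays of a mouse share an RNA extract. In whole tissue, fewer cells of a type and less RNA per cell cannot be told apart.

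Epithelial cells hold to each other by an apical belt of tight junctions, built of claudins, occludin and JAM proteins on a ZO scaffold, by adherens junctions, built of classical cadherins, and by spot-like desmosomes. Keratins are the intermediate filaments of epithelium. They form as pairs of a type I and a type II chain and are anchored at desmosomes through plakophilins, plakoglobin and desmoplakin. The lining of the tube is a simple epithelium of secretory and ciliated cells, in which keratins 7, 8, 18 and 19 and E-cadherin are typical.

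The tube label fitted the defining secretory marker Ovgp1, whose signal was 18938, 20773 and 18541 in the mogp-TAg tubes of 7, 8 and 9 weeks, against 23026, 22353 and 23114 in the wildtype tubes. That difference did not pass (-0.24, adjusted p = 0.0831). Of the 7 secretory markers with values 2 rose, Slc26a4 by 2.07 and Wfdc2 by 1.10, and 1 fell, Msln by 0.87, which also counts among the mesothelial markers. Markers of other cell types moved with genotype. Of the listed markers with values, 10 of 11 for ciliated cells, 8 of 8 for mesothelium, 8 of 9 for smooth muscle and 5 of 9 for endothelium were lower in mogp-TAg tubes, 4 of 4 for dividing cells were higher, and 0 of 5 for keratinocytes passed in either direction by limma (1 at an unadjusted p below 0.05). Ovarian genes stood out in 1 mouse. The oocyte gene Gdf9 had a signal of 714.5 in the mogp-TAg mouse of 7 weeks and of 122 and 129 in the other mogp-TAg mice, against 267, 129.7 and 260.3 in the wildtype mice. Most of it lay on 1 array: Gdf9 in that mouse had 1520.5 in repeat 2 and 336 in repeat 1, and the wildtype mouse of 7 weeks had 414 in repeat 1. Array medians lay between 136.9 and 331.9, higher in repeat 1 than in repeat 2 of every mouse.

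A total of 16 of the 83 genes passed the genotype test, 6 higher and 10 lower in mogp-TAg tubes (limma, adjusted p under 0.05). That is 19.3% of the members, beside 22.9% of all named genes, with 10.4% of all genes higher and 12.5% lower, so the share is near the background. The median log2 difference was -0.02 over the members and -0.02 over all genes. At an unadjusted p below 0.05 there were 26 members, beside 37.2% of all genes, and 29 had no overlap between the mice of the 2 genotypes (34.9%), beside 41.1% of all genes. The genes that rose were Cdh16, Krt17, Tjp3 and the gamma protocadherins Pcdhgb6, Pcdhgb2 and Pcdhga4. The genes that fell were Cdhr3, Cldn15, Krt23, Pkp2, Pcdhb3, Pcdhb7, Cldn12, Cdh3, Pkp1 and Cdh13. Without the mogp-TAg mouse of 7 weeks the counts were 9 higher and 6 lower, without that of 8 weeks 1 and 6, and without that of 9 weeks 2 and 7. Without the wildtype mouse of 7 weeks they were 3 higher and 8 lower, without that of 8 weeks 4 and 8, and without that of 9 weeks 2 and 6.

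Many of these genes were dim. The array floor, taken as the first percentile of normalized signals, was 87.7, and a gene was called near the floor where its mean signal in a genotype was below 175.4, which is 1 log2 unit above it. In both genotypes 47 of the 83 members lay near the floor, and folds are understated there. Of those 47, 5 passed, beside 8.00% of all genes that dim. Of the 36 members above the floor in 1 or both genotypes, 11 passed, beside 30.0% of all such genes.

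**Figure D1:**
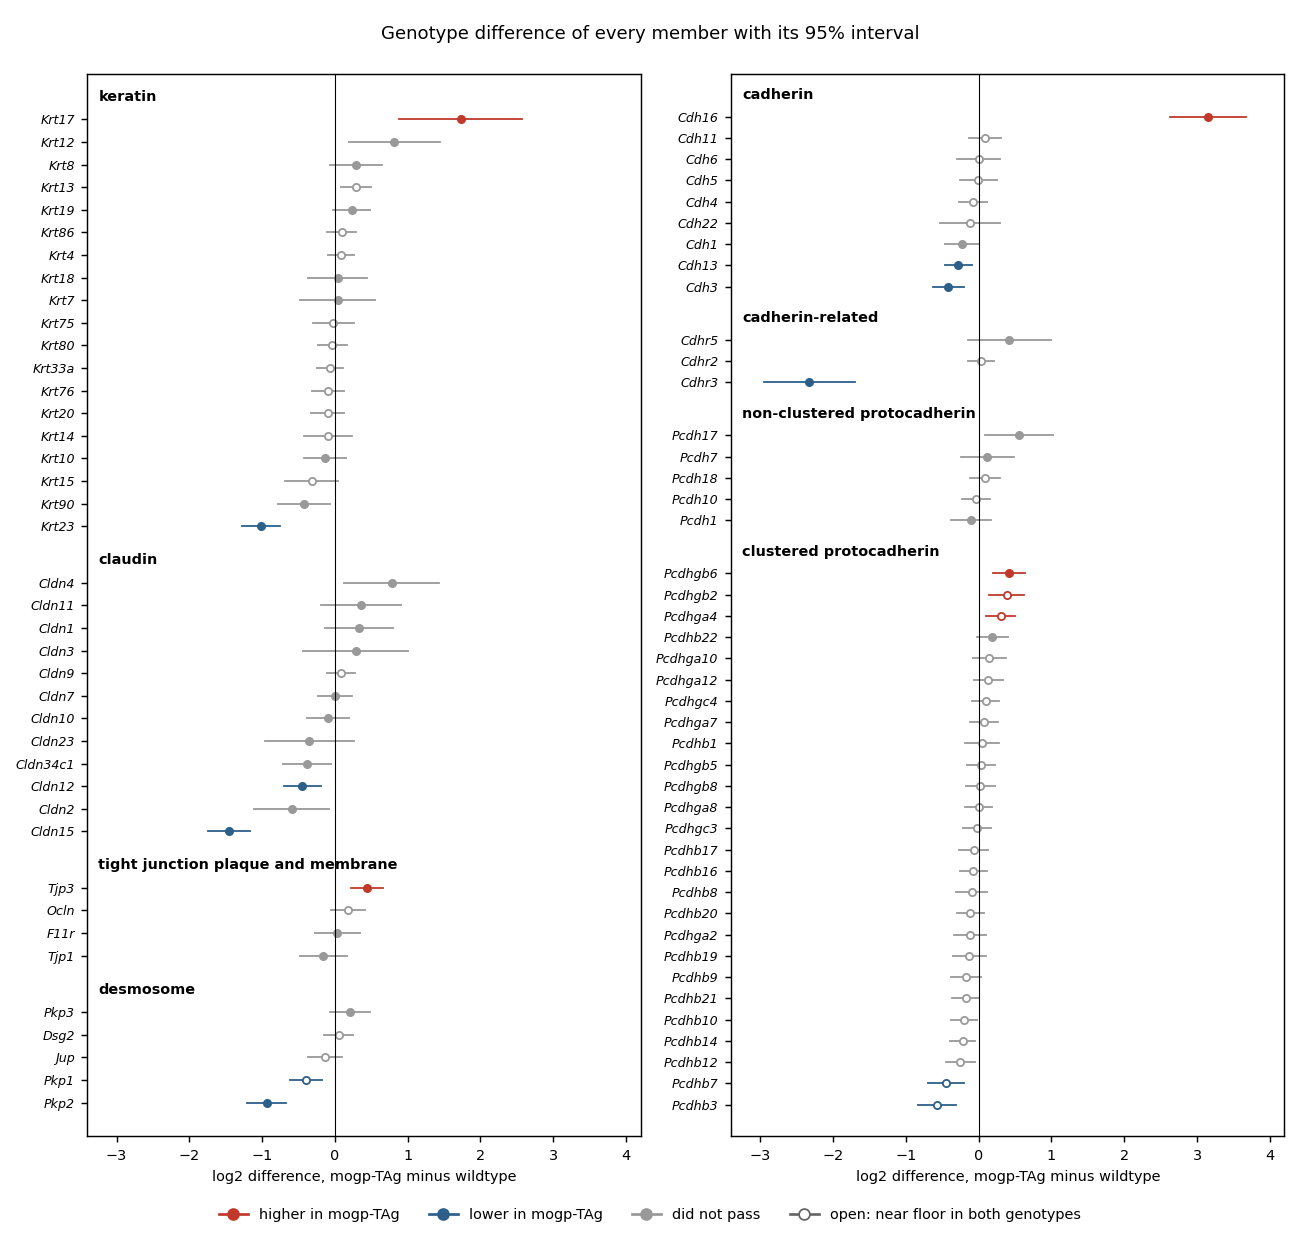
Log2 difference between mogp-TAg and wildtype tubes for each of the 83 genes (horizontal axis), by family, with the 95% interval of the limma fit over 3 mice per genotype. Red marks genes that were higher, blue genes that were lower, grey genes that did not pass, and open points genes near the array floor in both genotypes; Cdh16 at 3.15 and Cdhr3 at -2.33 lie farthest from 0.

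Among 19 keratins with values, Krt17 rose, Krt23 fell and 17 did not pass. Krt17 encodes a type I keratin of basal cells, hair follicles and stressed or growing epithelium. Its signal was 328, 825 and 557 in the mogp-TAg mice of 7, 8 and 9 weeks, against 208, 184 and 109 in the wildtype mice. All mogp-TAg mice were above all wildtype mice, and the spread among mogp-TAg mice was wide. The difference was log2 1.73 (SE 0.36, adjusted p = 0.0148), or 3.31-fold. The wildtype mean lay near the floor, with the mice of 7 and 8 weeks just above that bound. It did not pass without the mogp-TAg mouse of 8 weeks (1.41, adjusted p = 0.0511) or that of 9 weeks (1.69, adjusted p = 0.0506). The summed signal of the 5 keratinocyte and squamous markers was 1035 to 1117 in mogp-TAg mice and 991 to 1139 in wildtype mice. Of these 5 markers, 4 lay near the floor in both genotypes, so the sum could show little of a change in such cells. Krt14, the basal keratin that often goes with Krt17, had near-floor signals in mogp-TAg and wildtype mice alike, with a difference of -0.10 (adjusted p = 0.665).

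Krt23, a type I keratin found in several glandular epithelia, ran the other way. Its signal was 178, 144 and 145 in mogp-TAg mice, against 298, 303 and 342 in wildtype mice, again with no overlap. The difference was -1.02 (SE 0.11, adjusted p = 0.00117), a 2.02-fold lower level, with a mogp-TAg mean near the floor. The call held in each of the 17 alternatives run. Krt17 and Krt23 lie in the same block of type I keratin genes on chromosome 11 (GRCm38), where 10 members with values stretch from position 99385254 to 100261029. Krt23 is at chr11:99477973-99493120 and Krt17 at chr11:100256215-100261029. The 9 keratins of the chromosome 15 block, all type II apart from Krt18, had 0 calls by limma, with 1 at an unadjusted p below 0.05.

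The keratins of simple epithelium did not pass. Krt8, the type II chain, had signals of 3552, 4875 and 5277 in mogp-TAg mice, against 3474, 3752 and 3851 in wildtype mice, and Krt18, its type I partner, of 2196, 2468 and 2723, against 2112, 2063 and 3123. Groups overlapped for both. Krt8 differed by 0.29 (95% interval -0.07 to 0.64, adjusted p = 0.22) and Krt18 by 0.04 (-0.37 to 0.44, adjusted p = 0.901). Krt19 differed by 0.23 (-0.02 to 0.48, adjusted p = 0.175) and Krt7 by 0.04 (-0.48 to 0.55, adjusted p = 0.925). Changes of these sizes lie within the intervals, so the misses do not show equal levels.

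Krt8 depended on which arrays entered. Its repeat 2 signal was below its repeat 1 signal in every mouse, by -1.21, -0.86 and -0.67 log2 units in mogp-TAg mice and by -0.30, -0.58 and -0.48 in wildtype mice. With repeat 1 alone it was higher in mogp-TAg tubes (0.52, adjusted p = 0.0294), as it was without the mogp-TAg mouse of 7 weeks (0.46, adjusted p = 0.0196). Krt12, a type I keratin best known from the cornea, had signals of 170.3, 316 and 337 in mogp-TAg mice, against 122, 173 and 159 in wildtype mice. It differed by 0.81 (adjusted p = 0.069), and passed with the replicate block (adjusted p = 0.0115), with age as a block (0.0136) and without the mogp-TAg mouse of 7 weeks (1.13, adjusted p = 0.00454). Krt12 also passed with another normalization (0.0386), a filter on dim probes (0.047), array quality weights (0.00187) and repeat 1 alone (0.0412). The same held with all 12 arrays and mouse as a random block (0.00981) and with an intensity trend in the variance (0.0445). Krt13, a type I keratin of stratified mucosa, lay near the floor and differed by 0.29 (adjusted p = 0.0586). It passed with the replicate block (0.0491), with array quality weights (0.0165) and in some other alternatives. Krt90 differed by -0.42 (adjusted p = 0.0934; 0.0391 with array quality weights).

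**Figure D2:**
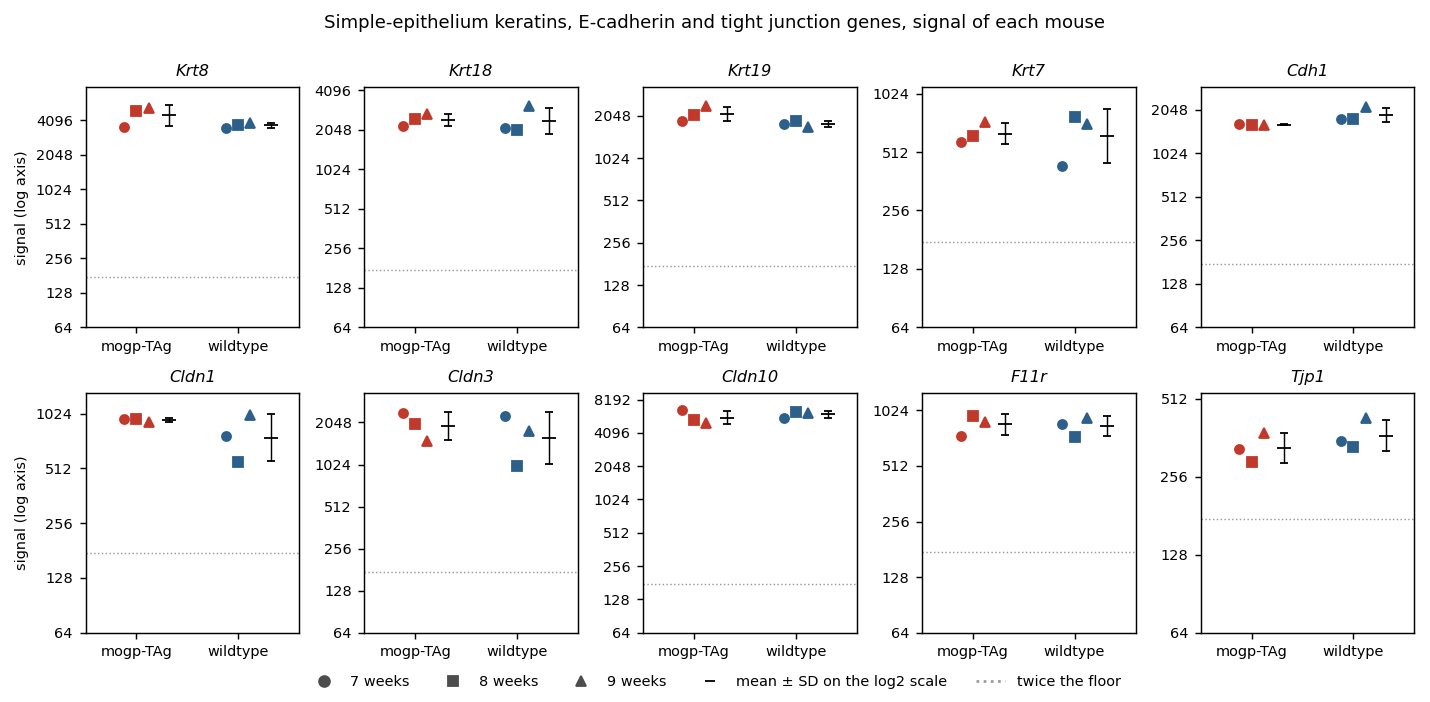
Quantile-normalized signal on a log axis of Krt8, Krt18, Krt19, Krt7, Cdh1, Cldn1, Cldn3, Cldn10, F11r and Tjp1 in each mogp-TAg mouse (left) and wildtype mouse (right), with the mean and SD on the log2 scale and a dotted line at 175.4, below which a signal counts as near the floor. The 3 mogp-TAg mice lie below the 3 wildtype mice for Cdh1 and overlap them for the other 9 genes.

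Of 12 claudins with values 2 fell, 0 rose by limma, and 10 did not pass, beside 22.9% of all genes called. Over all 12, the 2 that fell included, 5 had an unadjusted p below 0.05, beside 37.2% of all genes. Cldn15 encodes a claudin that forms cation-permeable pores and is best known from the intestine. Its signal was 264, 289 and 314 in mogp-TAg mice, against 708, 756 and 923 in wildtype mice. Every wildtype mouse lay far above every mogp-TAg mouse. The difference was -1.46 (SE 0.12, adjusted p = 4.84e-04), 2.74-fold lower, and it held in each of the 17 alternatives. A further Cldn15 probe fell by 1.15 (adjusted p = 8.07e-04), and a probe near the floor differed by -0.34 (adjusted p = 0.0671).

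Cldn12, a claudin without the usual PDZ-binding tail, had signals of 315, 348 and 386 in mogp-TAg mice, against 464, 445 and 520.2 in wildtype mice. It fell by 0.45 (SE 0.11, adjusted p = 0.025), yet the repeats disagreed in size. Repeat 2 was below repeat 1 by -0.93, -0.86 and -0.62 in mogp-TAg mice and by -0.10, -0.37 and -0.03 in wildtype mice, and with repeat 1 alone the difference was -0.13 (adjusted p = 0.374). With repeat 2 alone it was -0.77. The call was also lost without the mogp-TAg mouse of 7 weeks (adjusted p = 0.0535) or 8 weeks (0.0918) and without the wildtype mouse of 7 weeks (0.0629) or 9 weeks (0.0826).

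Cldn4 and Cldn2 sat on either side of 0 without passing. Cldn4, a barrier-forming claudin, had signals of 412, 337 and 229.8 in mogp-TAg mice, against 192, 132 and 250 in wildtype mice, and differed by 0.78 (adjusted p = 0.0879; 0.0318 with the replicate block). Its groups overlapped, and in the mogp-TAg mouse of 8 weeks repeat 2 was 1.05 log2 units above repeat 1. Cldn2, a pore-forming claudin, had signals of 322, 523 and 485 in mogp-TAg mice, against 547, 828 and 617 in wildtype mice, and differed by -0.59 (adjusted p = 0.0975; 0.0433 with the replicate block and 0.0207 with age as a block). Cldn34c1 also passed with the block (-0.38, adjusted p = 0.0322) and not without it (adjusted p = 0.0949).

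The remaining bright claudins did not pass. Cldn10, which has the brightest of its 3 probes at 6596, 5332 and 5070.2 in mogp-TAg mice, against 5534, 6368 and 6172 in wildtype mice, differed by -0.10 (95% interval -0.38 to 0.19). Cldn3 differed by 0.28 (-0.44 to 1.01) and Cldn1 by 0.33 (-0.14 to 0.79), both barrier claudins. Wildtype signals of Cldn3 ranged from 993 to 2298, which made its interval wide. Cldn7 differed by 0.01 (-0.23 to 0.24).

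At the cytoplasmic face of the tight junction, Tjp3 rose. Tjp3 encodes ZO-3, a scaffold found mainly in epithelial tight junctions. Its signal was 233, 273 and 268 in mogp-TAg mice, against 182, 200.3 and 186 in wildtype mice, with no overlap, and the difference was 0.44 (SE 0.09, adjusted p = 0.0163). A further probe rose by 0.37 (adjusted p = 0.048). The call was lost without the mogp-TAg mouse of 8 weeks (adjusted p = 0.0763) or 9 weeks (0.0508) and without the wildtype mouse of 7 weeks (0.0591) or 9 weeks (0.0563). Tjp1, which encodes ZO-1, differed by -0.16 (95% interval -0.48 to 0.16), Ocln by 0.18 (-0.05 to 0.42) and F11r, which encodes the adhesion protein JAM-A, by 0.03 (-0.27 to 0.34).

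Of 5 desmosome genes with values, both lower ones were plakophilins, the armadillo proteins that link desmosomal cadherins to desmoplakin. Pkp2 had signals of 696, 834 and 687 in mogp-TAg mice, against 1441, 1266 and 1533 in wildtype mice. The groups were well apart, with a difference of -0.94 (SE 0.11, adjusted p = 0.0017), 1.91-fold lower. Its other 2 probes fell by 0.67 and 0.44 (adjusted p = 0.0167 and 0.0373), and the chosen probe kept its call in each of the 17 alternatives. Pkp1, the plakophilin of stratified epithelium, lay near the floor and fell by 0.40 (SE 0.09, adjusted p = 0.024). It kept its call only without the wildtype mouse of 7 weeks among the 6 left-out mice, with adjusted p from 0.0504 to 0.0817 without each of the others. Pkp3 differed by 0.21 (95% interval -0.06 to 0.48), and Dsg2, a desmosomal cadherin, by 0.05. Jup, which encodes plakoglobin, lay near the floor and differed by -0.13. Dsp, Pkp4 and the desmocollins were not analysed here.

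Of 9 cadherins with values, Cdh16 rose and Cdh3 and Cdh13 fell. Cdh16 encodes Ksp-cadherin, a cadherin with a short cytoplasmic tail that was first described in kidney tubules. Its signal was 1905, 1102 and 1025 in the mogp-TAg mice of 7, 8 and 9 weeks, against 153.5, 145 and 137 in the wildtype mice. The wildtype signals lay near the floor, and the lowest mogp-TAg mouse lay far above them. The difference was 3.15 (SE 0.22, adjusted p = 3.19e-04), or 8.91-fold, and is understated since the wildtype signals lay near the floor. The call held in each of the 17 alternatives, with a difference of 2.87 without the mogp-TAg mouse of 7 weeks.

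Cdh3 encodes P-cadherin, of basal and placental epithelium. Its signal was 156, 141 and 134.5 in mogp-TAg mice, against 188, 201 and 186 in wildtype mice, a fall of 0.42 (SE 0.09, adjusted p = 0.0167). The call was lost without the mogp-TAg mouse of 8 weeks (adjusted p = 0.074) and with repeat 2 alone (0.0911). A further Cdh3 probe near the floor differed by -0.25 and did not pass (adjusted p = 0.076). Cdh13 encodes T-cadherin, which has no transmembrane segment and is known from vessels and muscle. It fell by 0.28 (SE 0.08, adjusted p = 0.0489), but not with the replicate block (adjusted p = 0.0691), with age as a block (0.0728) or without any 1 of the 6 mice (0.0535 to 0.165), and a further probe near the floor differed by 0.13. Cdh1 encodes E-cadherin, and its signal was 1624, 1598 and 1604 in mogp-TAg mice, against 1772, 1757 and 2147 in wildtype mice. The groups did not overlap, yet the difference of -0.23 did not pass (95% interval -0.46 to 0.01, adjusted p = 0.152). Cdh5, the endothelial VE-cadherin, lay near the floor and did not pass (95% interval -0.26 to 0.25).

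Cdhr3 had the largest fall of the 83 genes. It encodes a protocadherin-like protein of airway ciliated cells, where it serves as the receptor of rhinovirus C in humans. Its signal was 905, 585 and 413 in the mogp-TAg mice of 7, 8 and 9 weeks, against 3238, 2552 and 3341 in the wildtype mice. The groups lay far apart, and the difference was -2.33 (SE 0.27, adjusted p = 0.0013), 5.02-fold lower, and a further probe fell by 0.75 (adjusted p = 0.00106). The call held in each of the 17 alternatives. The 11 ciliated markers, of which 10 fell, had a summed signal of 8724 to 9472 in mogp-TAg mice and 16096 to 18492 in wildtype mice. Tubb4b, the 1 that did not pass, had signals of 3722, 4768 and 5869 in mogp-TAg mice, a large share of those sums. Its wildtype signals were 4862, 4818 and 4478. The differences of the 11 markers ran from -2.07 for Dnaic1 to -0.0034 for Tubb4b, with a median of -0.98. The part of ciliated cells in the fall of Cdhr3 was not tested. The other 2 cadherin-related genes with values did not pass.

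Upstream sequences are shown for Cdhr3, Cldn15 and Krt23, since these are the genes that kept their call in each of the 17 alternatives and were matched in the RefSeq promoter table (GRCm38.p6). Promoter entries were kept for 5 of the 16 genes that passed: Cdhr3, Cldn12, Cldn15, Krt23 and Tjp3. The protocadherins that passed are not among them, and whether the promoter table holds them is not reported here. Each window runs from 250 bases before to 50 bases after an annotated start, on the strand of the gene, and lies at chr12:33092826-33093125 (minus) for Cdhr3, chr5:136967619-136967918 (plus) for Cldn15 and chr11:99493071-99493370 (minus) for Krt23. Capitals mark the X-box half-site GTTGCC, which RFX factors of ciliated cells bind as pairs, read on both strands.
Cdhr3: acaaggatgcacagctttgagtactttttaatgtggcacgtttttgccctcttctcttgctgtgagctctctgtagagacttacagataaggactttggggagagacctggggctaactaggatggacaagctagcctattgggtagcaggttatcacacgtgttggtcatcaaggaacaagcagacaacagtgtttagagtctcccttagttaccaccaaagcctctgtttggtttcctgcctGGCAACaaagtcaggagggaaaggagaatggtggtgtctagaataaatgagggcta
Cldn15: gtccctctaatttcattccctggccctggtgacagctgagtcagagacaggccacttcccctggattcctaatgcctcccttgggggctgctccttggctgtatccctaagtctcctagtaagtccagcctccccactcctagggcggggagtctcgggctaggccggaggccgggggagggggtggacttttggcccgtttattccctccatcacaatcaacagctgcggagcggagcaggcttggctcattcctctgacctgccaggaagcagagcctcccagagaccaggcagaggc
Krt23: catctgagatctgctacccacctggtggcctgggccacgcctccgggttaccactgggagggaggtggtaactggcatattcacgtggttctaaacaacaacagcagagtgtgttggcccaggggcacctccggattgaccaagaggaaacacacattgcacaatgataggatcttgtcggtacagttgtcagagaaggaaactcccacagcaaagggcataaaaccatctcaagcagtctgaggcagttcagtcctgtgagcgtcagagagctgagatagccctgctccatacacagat
The Cdhr3 window holds 1 match, on the opposite strand and starting 6 bases before the annotated start, and the other 2 windows hold 0. Of all 32851 promoters in the table, 12.5% hold a match, so 1 in a window is common. The E2F site, searched on both strands as TTTGGCGC, TTTCCCGC or TTTCGCGC, is in 1.85% of all promoters and in 0 of these 3 windows. GC content was 46.7% for Cdhr3, 61.0% for Cldn15 and 53.0% for Krt23. The matches describe letters only.

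Mesothelial markers were lower in mogp-TAg tubes. Their summed signal over 8 genes, all 8 of which fell, was 1900 to 3027 in mogp-TAg mice and 6475 to 8984 in wildtype mice. Smooth muscle markers summed to 35150 to 41895 in mogp-TAg mice and 53327 to 59833 in wildtype mice, with 8 of 9 lower and a median difference of -1.39. Acta2, the 1 that did not pass (-0.08), holds a large share of these sums. Its signals were 28709, 24757 and 28441 in mogp-TAg mice and 30224, 27682 and 28709 in wildtype mice. The part of mesothelial and smooth muscle cells in the falls of Cldn15, Krt23, Pkp2, Cdh3 and Cdh13 was not tested. Dividing-cell markers summed to 10788 to 16537 in mogp-TAg mice and 790 to 1701 in wildtype mice, and their part in the rises of Cdh16 and Krt17 was not tested.

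**Figure D3:**
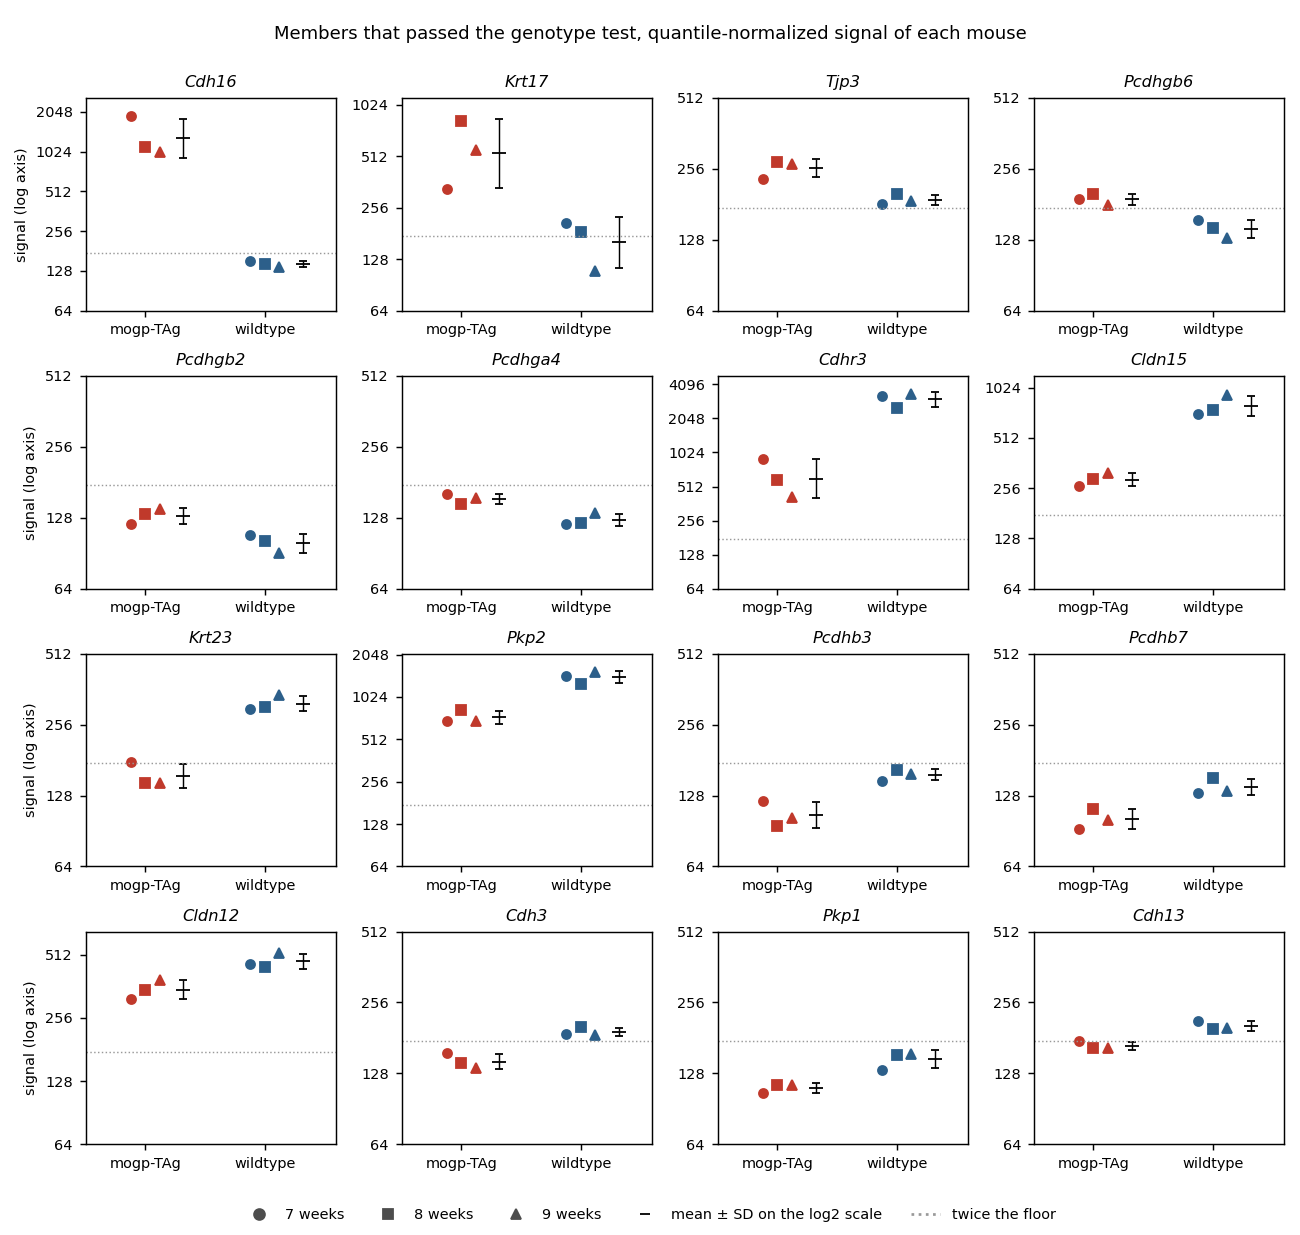
Quantile-normalized signal on a log axis of the 16 genes that passed, in each mogp-TAg mouse (left) and wildtype mouse (right) of each panel, with the mean and SD on the log2 scale; the dotted line at 175.4 marks the upper bound of signals near the floor. The mice of the 2 genotypes do not overlap in any panel, and Pcdhgb2, Pcdhga4, Pcdhb3, Pcdhb7 and Pkp1 lie under the line in both.

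The clustered protocadherins, single-pass adhesion proteins best known for giving neurons their identity, moved little. Of 26 with values 24 lay near the floor in both genotypes. Of 14 beta genes, 2 fell and 0 rose by limma, with 5 at an unadjusted p below 0.05, and 12 had a negative difference (median -0.15). Of 12 gamma genes, 3 rose and 0 fell, with 3 at an unadjusted p below 0.05, and 9 had a positive difference (median 0.09). Beside these counts, 8.00% of all genes near the floor in both genotypes were called, with a median difference of -0.004. Of all genes, 22.9% were called and 37.2% had an unadjusted p below 0.05. The 2 groups of genes are neighbours on chromosome 18, and whether they differ was not tested.

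Pcdhb3 had signals of 121, 94.7 and 103 in mogp-TAg mice, against 148, 164 and 158.5 in wildtype mice, a fall of 0.57 (SE 0.11, adjusted p = 0.0112) that held whichever mouse was left out. With repeat 2 alone it did not pass (adjusted p = 0.0826). Pcdhb7 fell by 0.45 (SE 0.11, adjusted p = 0.0231), with adjusted p from 0.0505 to 0.063 without the mogp-TAg mouse of 7 or 9 weeks or the wildtype mouse of 8 or 9 weeks. Pcdhb14 differed by -0.22 and passed with the replicate block (adjusted p = 0.0373) but not without it (0.0767). Pcdhb12 and Pcdhb10 differed by -0.25 and -0.20 (adjusted p = 0.0707 and 0.0984), and passed with all 12 arrays and mouse as a random block (0.0316 and 0.0382). All 5 of these genes lay near the floor.

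Pcdhgb6 had signals of 190.3, 200.4 and 180.5 in mogp-TAg mice, against 155, 143.5 and 130.2 in wildtype mice, a rise of 0.42 (SE 0.10, adjusted p = 0.0211). It was lost without the mogp-TAg mouse of 8 weeks (adjusted p = 0.093) or the wildtype mouse of 9 weeks (0.0685), and with repeat 1 alone (0.187). Pcdhgb2 rose by 0.39 (adjusted p = 0.0348) and Pcdhga4 by 0.30 (adjusted p = 0.0445), and neither passed with age as a block (0.0719 and 0.075). Pcdhgb2 kept its call only without the mogp-TAg mouse of 7 weeks among the 6 left-out mice (0.0509 to 0.123 without each of the others), and Pcdhga4 lost it without any 1 mouse (0.0589 to 0.133). Gamma transcripts share their last exons and beta genes are close copies, so signals of single isoforms are uncertain. Of 5 non-clustered protocadherins 0 passed by limma, with 1 at an unadjusted p below 0.05. That gene, Pcdh17, had signals of 779, 1330.3 and 896 in mogp-TAg mice, against 613, 771 and 619 in wildtype mice, and differed by 0.56 (adjusted p = 0.0919; 0.0253 with age as a block and 0.0411 without the mogp-TAg mouse of 7 weeks).

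Whether the genotype difference changed with age was asked with a genotype by age term. None of the 83 genes passed by limma (0 of 83, lowest adjusted p = 0.755), beside 0 of 11229 genes, and 2 had an unadjusted p below 0.05, beside 7.13% of all genes. The lowest p belonged to Cdhr3, whose difference was -1.84 at 7 weeks, -2.13 at 8 weeks and -3.02 at 9 weeks (slope -0.59 per week, SE 0.16, unadjusted p = 0.0128). The repeats differed in this course: mogp-TAg signals of Cdhr3 were 991, 413 and 307 in repeat 1, and 827, 828 and 554 in repeat 2. Krt15, a basal type I keratin near the floor, followed (slope -0.41, unadjusted p = 0.0224), and then Cdh16 (slope -0.36, unadjusted p = 0.0599), whose difference was 3.63, 2.93 and 2.91 at the 3 ages. For Krt17 it was 0.66, 2.17 and 2.35 (unadjusted p = 0.06). Each age rests on 1 mouse of each genotype, so age and mouse cannot be told apart at a single age.

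**Figure D4:**
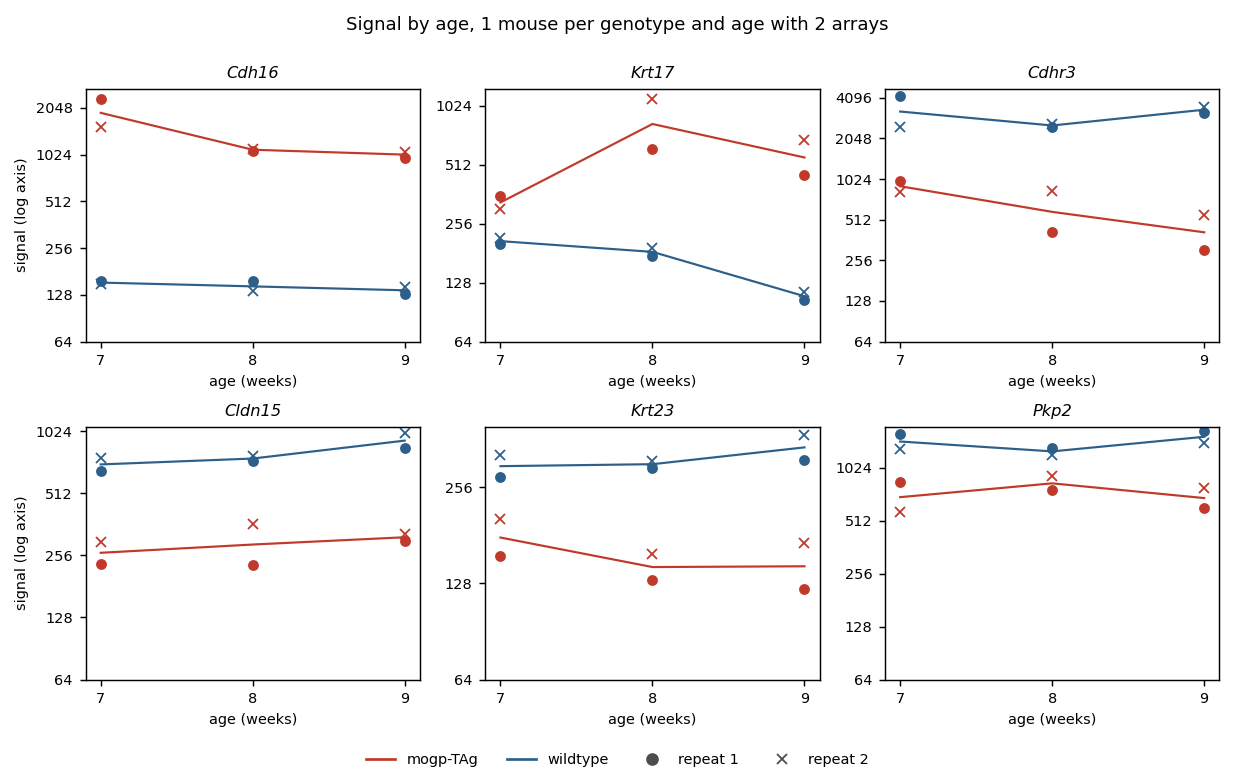
Signal on a log axis of Cdh16, Krt17, Cdhr3, Cldn15, Krt23 and Pkp2 against age in weeks, for mogp-TAg mice (red) and wildtype mice (blue). Points are the 2 arrays of a mouse (circle for repeat 1, cross for repeat 2) and lines join the mouse means, which for Cdhr3 in mogp-TAg mice are 905, 585 and 413.

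Other genes of cell junctions and epithelial state were counted from lists. Of 78 with values, 12 rose and 10 fell, beside 22.9% of all genes called, and their median difference was 0.02. Among adherens junction partners 2 of 10 rose, Nectin2 and Nectin3, the immunoglobulin-like adhesion proteins, by 0.66 and 0.45. Ctnna1, which encodes the alpha-catenin that ties cadherins to actin, differed by 0.20 (adjusted p = 0.186). Among tight junction partners and polarity proteins 2 of 20 rose and 4 fell. Lsr, a tricellular junction protein, rose by 0.45 and Cxadr, a JAM relative, by 0.33. Another tricellular junction protein, Ildr1, fell by 0.63. Jam2 fell by 1.29 and Esam, which also counts among the endothelial markers, by 0.92. The brightest gene of each list is given as well, and here Llgl2, a polarity protein, differed by -0.17 (adjusted p = 0.335).

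Among desmosome and cytolinker partners the plakin Ppl rose by 0.86 and the catenin-like Ctnnal1 fell by 0.93, of 5 with values, and the cytolinker Plec differed by -0.21 (adjusted p = 0.219). Of 5 hemidesmosome genes Lamb3, a chain of the epithelial anchoring laminin, rose by 1.86, with a wildtype mean near the floor, the integrin chain Itgb4 rose by 0.39, and the tetraspanin Cd151 fell by 0.53. Of 7 gap junction genes 0 passed in either direction by limma, with 1 at an unadjusted p below 0.05, and Gja1, which encodes a connexin, differed by 0.11 (adjusted p = 0.737). Of 5 epithelial adhesion molecules 1 rose, the large protocadherin Fat4 (0.55), and the planar polarity cadherin Celsr1 differed by -0.27 (adjusted p = 0.182). Among 11 other intermediate filament genes and lamins, 3 rose and 3 fell, among them the lamins Lmnb1 (1.91) and Lmnb2 (1.5) and the muscle filament genes Des (-2.14) and Synm (-1.88). Krtcap2 differed by -0.15 (adjusted p = 0.474). Des and Synm also count among the smooth muscle markers. Of 15 transcription factors of epithelial state, Grhl2, an activator of epithelial junction genes, rose by 0.46, and Zeb2, a repressor of Cdh1, fell by 0.52. The repeats of Zeb2 disagreed. In repeat 1 its signals were 689, 682 and 513.5 in mogp-TAg mice, against 1112, 1231 and 1001 in wildtype mice. In repeat 2 the groups overlapped, with 438, 294 and 459 against 368, 526 and 465. Klf5 differed by 0.60 (adjusted p = 0.0891).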

How the data were processed

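Total RNA of 6 mice was measured on 12 one-colour Illumina arrays. What was deposited is a score per probe, made by the authors by standardizing every array separately, and GenomeStudio 1.6.0 was used, per the submitters' processing notes. Scale and centring are not given in the sources used here. Both were solved from the values, which returned signals with 1 decimal for 100% of values on all 12 arrays, within 0.01 of the last digit. A scanner table's 12 signal and 12 detection columns match no single sample and were not used. Of 25697 probes, 9033 were blank on all arrays and 16664 were tested.

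Signals were quantile-normalized, put on a log2 scale and averaged over the 2 arrays of a mouse. Genotype was tested with limma 3.58.1 in R 4.3.3 (lmFit and eBayes, two-sided, Benjamini-Hochberg adjustment over all 16664 probes, threshold 0.05), and genotype by age likewise. Differences are mogp-TAg minus wildtype. Where several probes read a gene, the brightest on average over the 12 arrays stood for it. P-values measure the spread between 3 mice of a genotype, which differ in age, so age is part of that spread. The main fit had no age term, and eBayes draws the variance of each probe toward that of all probes. All 98 member probes matched the RefSeq gene table (GRCm38.p6) by Entrez identifier, and 0 symbols needed an update.

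The repeat numbers of the labels paired the arrays: the repeat 2 minus repeat 1 differences correlated between mice above 0.1 in all 15 pairs of mice (0.109 to 0.638), as seen in the data and not stated by the labels. A fit with the repeat number as a block and mouse as a random block is given beside each call it changed.

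The members, the gene lists and the rule for named genes were chosen with earlier results of these data known. The rule allowed names for members that passed, for a list of common junction genes whatever their values, for members whose call, probes or repeats disagreed, for the 3 lowest interaction p-values, and, of each other list, for the 2 highest and 2 lowest that passed and the brightest gene. Not all that it allowed are named, and Ildr1 is named outside it. In a test on simulated data with 16664 probes, 200 of them changed, the genotype fit recovered 86% of changes of log2 1 and 95% of log2 2, with 8 false among 189 calls. It held no change smaller than log2 1, so it does not show how well smaller differences, such as that of Tjp3 (0.44), are found. In the data 21.4% of all probes passed, a far larger share than was changed in the simulation. The alternatives changed the normalization, scale, filter, array weights, repeats, blocks, variance model, probe and mice.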

Additional observations from a re-analysis of the deposited data

How the results depend on the processing

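In every alternative that was run, 5 of the 16 calls held (Cdh16, Cdhr3, Cldn15, Krt23 and Pkp2), 11 were lost in 1 or more of at most 17, and 0 changed direction. Of 6 higher and 10 lower genes, a filter on dim probes gave 4 and 5 (8 of the 16 calls kept, and Krt12 gained), array quality weights gave 10 and 15, and all 12 arrays with mouse as a random block gave 10 and 13. Age as a block gave 6 and 10, with 13 of the 16 calls kept. With repeat 2 alone there were 4 higher and 5 lower. Leaving out 1 mouse gave 1 to 9 higher and 6 to 8 lower. With the replicate block there were 9 higher and 12 lower, and it changed no call beside those named. Fewer members were tested under the filter on dim probes (33 of 83); for the other settings the cause was not tested. The genotype by age term had 0 calls by limma in each of its 4 settings, with a lowest adjusted p of 0.344 with the replicate block. Signals near the floor limit what 47 of the 83 genes can show.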
